A study of Mus musculus with 10 samples.

Results

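Genes of complement C1q, of Fc receptors and of their signalling adaptors were followed in the liver of mice with 1 inactivated copy of Tgfbr2, the type II receptor for TGF-beta. The set holds C1qa, C1qb, C1qc, Tyrobp, Fcer1g, Fcgr1, Fcgr3, Pilra, Ctss and Plek. These 10 genes were listed by symbol, and each was read by 1 probe, so the set takes 10 probes and 10 of the 16383 genes with a symbol on the array. The genes were chosen with their difference between the groups in view, so that difference is a description here and carries no test. All 10 symbols matched, and no filter on low values was applied.

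The study compared liver RNA of 6 heterozygous mice (Tgfbr2+/-, titled Tgfbr-/+ males) with 4 wild-type littermate controls (WT, no sex in their titles), all on a chow diet. Each library was hybridised on a 2-colour oligonucleotide array against 1 common pool of liver RNA from 6 wild-type control mice on the same diet. Not given in the sources used here are age, strain, how the Tgfbr2 allele was made and whether the pool holds any of the 4 control mice. The allele is named only as a heterozygous knockout, with no cell type to which it is restricted. Values are log2 ratios over the pool, so 0 means the level of the pool and a step of 1 means a doubling. A ratio holds no absolute level, so whether the defining markers of liver or of macrophages were near background could not be read, and no gene's level was set against another's.

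C1q is the recognition molecule of the classical complement pathway, built from 3 related chains that C1qa, C1qb and C1qc encode, and macrophages and dendritic cells make most of it. Fc gamma receptors bind the constant part of IgG. Fcgr1 encodes the high-affinity receptor and Fcgr3 a low-affinity activating one, and both signal through the Fc receptor gamma chain encoded by Fcer1g. Tyrobp encodes DAP12, a like adaptor for TREM2 and other activating receptors. Both adaptors carry an ITAM, a tyrosine motif that recruits the kinase Syk once phosphorylated. In liver, these genes are known mainly from Kupffer cells, the resident macrophages.

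Letters upstream of the genes were read from RefSeq promoter sequences (build GRCm38.p6), in the 250 bases before each start site. The table held 8 of the 10 genes, and C1qa and Tyrobp were not among them. GAGGAA, the core read by the myeloid ETS factor PU.1, lay on either strand in the windows of 7 of these 8 genes (C1qb, C1qc, Fcgr1, Fcgr3, Pilra, Ctss and Plek) and in 23.3% of the 32851 windows in the table. Fcer1g had none. The windows of the Fc receptors, of C1qb and of Plek, in which the match lay within 61 bases of the start, are shown with that of Fcer1g for contrast. Capitals mark GAGGAA or its reverse complement.
C1qb, chr4:136886201-136886450, minus strand: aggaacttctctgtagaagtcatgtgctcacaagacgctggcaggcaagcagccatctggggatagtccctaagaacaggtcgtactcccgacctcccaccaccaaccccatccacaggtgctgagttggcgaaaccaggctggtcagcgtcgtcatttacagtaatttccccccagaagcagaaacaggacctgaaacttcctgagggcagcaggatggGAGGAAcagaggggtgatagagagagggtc
Fcgr1, chr3:96293970-96294219, minus strand: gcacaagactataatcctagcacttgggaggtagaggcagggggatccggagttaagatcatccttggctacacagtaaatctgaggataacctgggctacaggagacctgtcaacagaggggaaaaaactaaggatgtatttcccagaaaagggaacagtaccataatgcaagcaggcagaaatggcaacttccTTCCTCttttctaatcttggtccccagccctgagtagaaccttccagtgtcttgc
Fcgr3, chr1:171059395-171059644, minus strand: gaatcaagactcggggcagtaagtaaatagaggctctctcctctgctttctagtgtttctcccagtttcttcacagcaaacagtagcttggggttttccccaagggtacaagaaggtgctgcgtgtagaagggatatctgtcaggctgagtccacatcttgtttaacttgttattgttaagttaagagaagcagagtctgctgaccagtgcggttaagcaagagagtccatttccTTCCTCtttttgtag
Plek, chr11:17008719-17008968, minus strand: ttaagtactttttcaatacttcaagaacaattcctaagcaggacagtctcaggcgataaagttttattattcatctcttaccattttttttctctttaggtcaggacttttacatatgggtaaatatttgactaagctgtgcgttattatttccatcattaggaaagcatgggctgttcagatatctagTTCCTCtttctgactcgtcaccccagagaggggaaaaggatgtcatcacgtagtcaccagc
Fcer1g, chr1:171234350-171234599, minus strand: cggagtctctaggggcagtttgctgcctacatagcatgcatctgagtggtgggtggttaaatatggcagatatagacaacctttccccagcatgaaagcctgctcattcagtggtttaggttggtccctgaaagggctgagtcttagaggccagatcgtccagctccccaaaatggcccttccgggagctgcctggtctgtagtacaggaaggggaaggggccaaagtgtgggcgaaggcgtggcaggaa
The match began 30 bases before the start in C1qb, 55 in Fcgr1, 61 in Plek and 15 in the Fcgr3 window shown. Around it, Fcgr1 and Fcgr3 shared the run TTCCTTCCTCTTTT of 14 bases, the longest run common to windows of any pair of these genes. That run occurred in 3 of the 32851 windows, those of Fcgr1, Fcgr3 and Entpd1, and was picked after the letters had been seen. Other motifs were rarer. An interferon response core, GAAA and again GAAA 2 bases on, lay in the windows of Ctss and Pilra (2.98% of all windows), and a composite of ETS and IRF sites, GGAA and GAAA 2 bases on, in that of Pilra (2.3%), where it overlapped the GAGGAA match. TATAAA lay in that of Ctss alone (12.4%), and TGANTCA, the AP-1 core, in none of the 8 (6.75%). All motifs were searched on both strands. Spi1, which encodes PU.1 and is named after its values were seen, differed between the groups by 0.01 ± 0.04 (SE, limma adjusted p = 0.989).

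Before the values, the direction of the columns needs stating. Sample over pool is the likely direction, read from the titles, which name the pool first, and from the targeted gene. Dyes were swapped, but which arrays were swapped is not given in the labels. The 2 probes of Tgfbr2 did not behave alike, and limma called neither. Probe 10024401828 differed by -0.88 ± 0.26 (SE, limma adjusted p = 0.757), with Tgfbr2+/- replicate 4 at 0.20, inside the WT range of -0.29 to 0.64, and the other 5 at -1.11 to -0.60. Probe 10024408236 differed by -0.07 ± 0.09 (adjusted p = 0.967). There Tgfbr2+/- replicates 3 and 6, at 0.28 and 0.24, lay above the WT range of 0.04 to 0.23, replicate 2 lay inside it at 0.11, and replicates 1, 4 and 5 lay below it. Whether either probe lies in the altered part of the gene is not given in the labels, so the gene is a weak check of labels and direction. Pearson's r over all probes was -0.33 between WT replicate 1 and Tgfbr2+/- replicate 5 (Spearman's rho -0.35). With the other libraries of its own group r was 0.04 to 0.13 for WT replicate 1 and -0.02 to 0.15 for Tgfbr2+/- replicate 5. On probe 10024401828 of Tgfbr2 the latter was at -0.86 as deposited. Whether WT replicate 1 or Tgfbr2+/- replicate 5 runs the other way was not settled. Differences of the 10 genes, the count of related genes and the means of the macrophage and neutrophil lists are therefore also given with each of these columns turned in sign. The other values are given as deposited only. Limma called 0 of 16383 genes at an adjusted p of 0.05 (background 0%), with 487 higher and 421 lower at an unadjusted p under 0.05, which is 2.97% and 2.57% of all genes.

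All 10 genes were higher in Tgfbr2+/- than in WT liver. The differences ran from 0.24 for C1qa to 0.69 for Pilra on the log2 scale, or 1.18-fold to 1.61-fold, with a median of 0.41. The median over all genes was 0.0044. For 7 of the 10, all 6 Tgfbr2+/- libraries lay above all 4 WT libraries, a pattern that 0.726% of all genes show. The choice of the genes used this contrast, so nothing is read from that count. Of the 40 WT values 36 lay below the pool, and of the 60 Tgfbr2+/- values 54 lay above it. Of all genes, 51.4% to 55.6% lay above the pool in each library. For these 10 genes the wild-type values mostly lay below a pool that is itself wild type. The 10 genes share their libraries and were chosen on this contrast, so these counts are only a description. In bulk liver RNA, more cells of a type and more RNA per cell cannot be told apart.

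**Figure D1:**
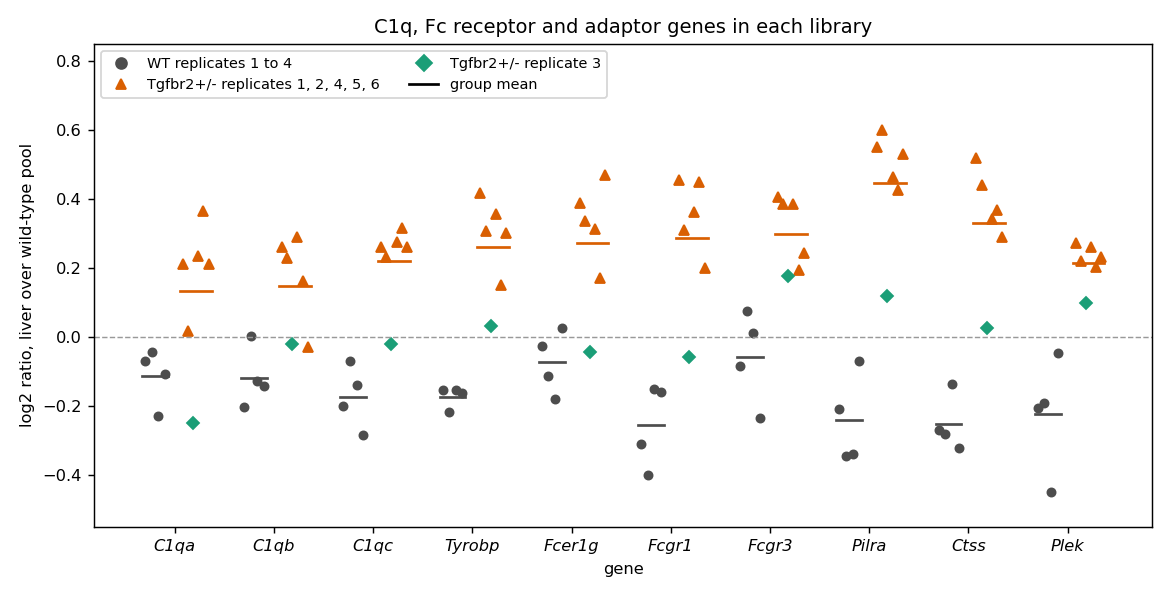
Log2 ratio over the wild-type pool (y axis) of each of the 10 genes (x axis) in 4 WT libraries (circles), Tgfbr2+/- replicates 1, 2, 4, 5 and 6 (triangles) and Tgfbr2+/- replicate 3 (diamonds), with lines at the group means. The diamonds lie lowest of the 6 Tgfbr2+/- libraries for 9 of the 10 genes, and the groups overlap for C1qa, C1qb and Fcer1g.

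C1qa and C1qb had the smallest differences of the 10, and C1qc differed more than Fcer1g or Fcgr3. C1qa (probe 10024416429) was at -0.07, -0.04, -0.23 and -0.11 in WT replicates 1 to 4 and at -0.25 to 0.37 in Tgfbr2+/- (median 0.21). The groups overlap, because Tgfbr2+/- replicate 3, at -0.25, lay below every WT library, while the other 5 lay above them. The means were -0.11 ± 0.08 (SD, n = 4) and 0.13 ± 0.22 (SD, n = 6), a difference of 0.24 ± 0.10 (SE of the limma fit). C1qb (probe 10024407136), which encodes the second chain, was at -0.20, 0.00, -0.13 and -0.14 in WT and at -0.03 to 0.29 in Tgfbr2+/- (median 0.20). Here 4 of 6 Tgfbr2+/- libraries cleared the WT range, and replicates 3 and 6, at -0.02 and -0.03, fell below WT replicate 2. The difference was 0.27 ± 0.08.

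C1qc (probe 10024399091), the third chain, was at -0.20, -0.07, -0.14 and -0.28 in WT and at -0.02 to 0.32 in Tgfbr2+/- (median 0.26). Its groups did not overlap, although Tgfbr2+/- replicate 3 came within 0.05 of WT replicate 2. The difference was 0.39 ± 0.07, or 1.31-fold. The chains lie side by side on chromosome 4 in the order C1qb, C1qc, C1qa. The next gene beyond C1qa, the ephrin receptor Epha8, differed by 0.05 ± 0.07 (limma adjusted p = 0.949). The mean of the C1q chains was -0.13 ± 0.06 (SD, n = 4) in WT and 0.17 ± 0.14 (SD, n = 6) in Tgfbr2+/-.

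Tyrobp and Fcer1g encode the ITAM adaptors. Tyrobp (probe 10024415346) was at -0.15, -0.22, -0.15 and -0.16 in WT, the narrowest WT spread of the 10 genes (SD 0.03). In Tgfbr2+/- it ran from 0.03 to 0.42 (median 0.31), so the nearest libraries of the groups were 0.19 apart. The difference was 0.43 ± 0.07, or 1.35-fold. Fcer1g (probe 10024409893) was at -0.03, -0.11, -0.18 and 0.03 in WT and at -0.04 to 0.47 in Tgfbr2+/- (median 0.33). Again only Tgfbr2+/- replicate 3 fell inside the WT range, and the difference was 0.35 ± 0.09. Hcst, which lies next to Tyrobp and encodes DAP10, the other adaptor of the NKG2D receptor, differed by 0.03 ± 0.05 (limma adjusted p = 0.955). On the other side of Tyrobp, Lrfn3 differed by -0.26 ± 0.09 (limma adjusted p = 0.793).

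Both Fc gamma receptors were separated between the groups. Fcgr1 (probe 10024395771) was at -0.31, -0.40, -0.15 and -0.16 in WT and at -0.06 to 0.46 in Tgfbr2+/- (median 0.34). Its difference was 0.54 ± 0.10, or 1.46-fold, and the groups were 0.09 apart at their nearest. Fcgr3 (probe 10024414646) was at -0.08, 0.08, 0.01 and -0.24 in WT, on both sides of the pool, and at 0.18 to 0.40 in Tgfbr2+/- (median 0.32). The difference was 0.36 ± 0.07, and the nearest libraries were 0.10 apart. Fcgr3 was the gene with the fewest WT libraries below the pool, 2 of 4. Next to it, the activating receptor gene Fcgr4 differed by 0.315 ± 0.09 (limma adjusted p = 0.621, 5 of 6 Tgfbr2+/- libraries above all WT libraries), and Cfap126 on the other side by -0.05 ± 0.14 (adjusted p = 0.977). The probe sequences were not used here, so cross-reading among these related receptor genes was not tested.

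Pilra, Ctss and Plek showed larger differences than the C1q chains. Pilra (probe 10024406799) encodes an inhibitory receptor of myeloid cells that binds sialylated ligands. It was at -0.21, -0.34, -0.34 and -0.07 in WT and at 0.12 to 0.60 in Tgfbr2+/- (median 0.50), with 0.19 between the nearest libraries. Its difference of 0.69 ± 0.09, or 1.61-fold, was the largest of the 10. Its neighbour Pilrb1, the activating partner that signals through DAP12, differed by 0.34 ± 0.07 (limma adjusted p = 0.27). All 6 Tgfbr2+/- libraries lay above the WT ones for Pilrb1 (0.726% of all genes). Zcwpw1, on the other side of Pilra, differed by 0.04 ± 0.05 (limma adjusted p = 0.937).

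Ctss (probe 10024406546) encodes cathepsin S, the lysosomal protease that trims the invariant chain from MHC class II. It was at -0.27, -0.28, -0.14 and -0.32 in WT and at 0.03 to 0.52 in Tgfbr2+/- (median 0.36), and the groups were 0.16 apart. The difference was 0.58 ± 0.09, or 1.5-fold. Its neighbour Ctsk, the gene of cathepsin K, differed by 0.0025 ± 0.06 (limma adjusted p = 0.997), and Hormad1 by 0.01 ± 0.05 (adjusted p = 0.991).

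Plek (probe 10024394504) encodes pleckstrin, the main protein kinase C substrate of platelets, which leukocytes make too. It was at -0.20, -0.19, -0.45 and -0.05 in WT and at 0.10 to 0.27 in Tgfbr2+/- (median 0.23), the narrowest Tgfbr2+/- spread of the 10 genes (SD 0.06). The difference was 0.44 ± 0.07, or 1.35-fold. Its neighbours Fbxo48 and Cnrip1 differed by -0.05 ± 0.06 and 0.09 ± 0.08 (limma adjusted p = 0.936 and 0.924).

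Turning a column kept every difference positive and closed most gaps. With WT replicate 1 turned in sign the differences ran from 0.17 ± 0.09 (SE) for C1qb to 0.58 ± 0.12 for Pilra, with a mean of 0.34 against 0.43 as deposited. With Tgfbr2+/- replicate 5 turned they ran from 0.12 ± 0.12 for C1qa to 0.55 ± 0.18 for Pilra, also with a mean of 0.34. The C1qa difference was then about the size of its SE. In each case the groups stayed apart for 1 gene, Fcgr3 with the first and Tyrobp with the second (0.256% and 0.317% of all genes). If all columns run the other way, each difference changes sign.

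**Figure D2:**
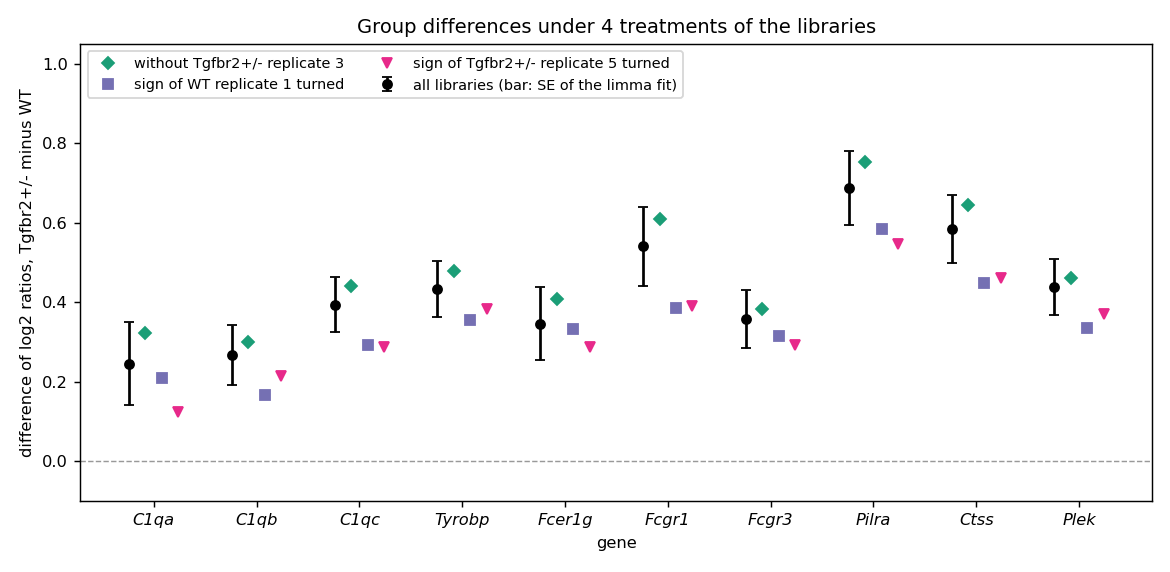
Difference of mean log2 ratios, Tgfbr2+/- minus WT (y axis), for each of the 10 genes (x axis) with all libraries (black, bars are the SE of the limma fit), without Tgfbr2+/- replicate 3, and with WT replicate 1 or Tgfbr2+/- replicate 5 turned in sign. All points lie above 0, from 0.12 for C1qa with Tgfbr2+/- replicate 5 turned to 0.75 for Pilra without Tgfbr2+/- replicate 3.

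The 10 genes varied among the Tgfbr2+/- livers mainly through 1 library. Their mean was 0.37, 0.31, 0.01, 0.33, 0.28 and 0.27 in Tgfbr2+/- replicates 1 to 6, and -0.17, -0.16, -0.19 and -0.15 in WT replicates 1 to 4. Tgfbr2+/- replicate 3 thus lay at the level of the pool, with 5 of the 10 genes above it (52.3% of all genes in that library), while replicate 1 was the highest for 5 genes. Over all probes Tgfbr2+/- replicate 3 correlated at 0.39 with WT replicate 3 (Pearson's r) and at -0.05 to 0.20 with the other Tgfbr2+/- libraries. Its spread was the smallest of the 10 libraries (SD 0.13). What sets this library apart was not tested. With Tgfbr2+/- replicate 3 left out the mean difference was 0.48, and 9 of the 10 genes separated the groups, C1qb being the exception (1.5% of all genes). Without WT replicate 2, C1qb separated them too, and 8 genes did in all (1.74% of all genes).

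Pairs of the 10 genes were compared over the 10 libraries after each group's mean had been subtracted, which removes the difference the genes were chosen on. Pearson's r was positive for 44 of 45 pairs, with a median of 0.54, a lowest value of -0.17 between Fcgr3 and Plek and a highest of 0.90 between Fcer1g and Pilra. Tyrobp and Fcer1g, the adaptors, were at 0.83. The pattern rests on Tgfbr2+/- replicate 3. Without it the median r was -0.0049, and 22 of 45 pairs were positive, from -0.94 to 0.74. Tyrobp was the gene nearest to the mean of the other 9, at 0.83 with all libraries and 0.51 without that one. Fcgr3 and Plek were the farthest, at 0.39 and 0.42, and at 0.03 and 0.15 without it. Without that library C1qc and C1qa were the farthest, at -0.37 and -0.33. With all libraries, Tyrobp ranked 25 among 16374 genes by r with the mean of the other 9, Plek 2108 and Fcgr3 2352. Many genes outside the set thus followed that mean more closely than Plek or Fcgr3 did. These correlations share libraries and pool, and are given as a description.

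Among 16373 other genes, those most like the mean of the 10 over the same 10 libraries, group means subtracted, were 1700001C19Rik (r = 0.92), Shisa5 (0.92), Irgm1 (0.92), Psmb9 (0.92), Nxn (0.91), Col6a1 (0.91), Rab31 (0.91) and Nmi (0.90). Irgm1 encodes an interferon-inducible GTPase and Psmb9 a subunit of the immunoproteasome. Without Tgfbr2+/- replicate 3 their r ranged from 0.29 for Col6a1 to 0.81 for 1700001C19Rik. Between the groups, Psmb9 differed by 0.31 ± 0.20, Rab31 by 0.23 ± 0.05 and Shisa5 by 0.23 ± 0.07 (limma adjusted p = 0.919, 0.435 and 0.704). The other 5 lay near 0, with Irgm1 at 0.09 ± 0.06, 1700001C19Rik at 0.08 ± 0.06, Nmi at 0.05 ± 0.10, Col6a1 at -0.01 ± 0.04 and Nxn at -0.05 ± 0.05.

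Genes that work with the 10 were read from 5 lists, which do not hold the 10 genes themselves. Of 128 measured genes in these lists 93 had a positive difference, and the median was 0.04. Over all genes 52.6% of differences were positive, which is the background for this and the following counts of positive differences. For counts at an unadjusted p under 0.05 the background is 2.97% of all genes higher and 2.57% lower. By limma 0 of the 128 passed at an adjusted p of 0.05, the smallest being 0.12. At an unadjusted p under 0.05, 24 were higher and 1 lower, so 18.8% were higher against 2.97% of all genes. That count was 15 with Tgfbr2+/- replicate 5 turned in sign, 15 without Tgfbr2+/- replicates 4 and 5 together, and 17 with WT replicate 1 turned. The lists were chosen with earlier results of these data known and share genes with the marker lists below. The counts are therefore a description.

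The partners of C1q and early complement genes included 9 of 14 with positive differences (median 0.03), of which 2 were higher at an unadjusted p under 0.05. They were Vsig4 and C2. Vsig4 encodes a receptor for C3 fragments on Kupffer cells and is also among the macrophage markers. It differed by 0.48 ± 0.08 (limma adjusted p = 0.12), with all 6 Tgfbr2+/- libraries above all WT libraries (0.726% of all genes). C2 differed by 0.28 ± 0.13 (limma adjusted p = 0.9). Itgb2 and Itgax, which encode chains of the iC3b receptors, differed by 0.08 ± 0.04 and 0.12 ± 0.09 (limma adjusted p = 0.917 and 0.92).

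Another list held other Fc receptors, receptors that pair with these adaptors, and some related genes such as the inhibitory receptor gene Cd300a and the adaptor gene Hcst. Of its 35 measured genes 27 had positive differences (median 0.04), and 6 were higher at an unadjusted p under 0.05. Clec4n, the gene of dectin-2, which signals through the Fc receptor gamma chain, differed by 0.30 ± 0.06 (limma adjusted p = 0.27). The inhibitory receptor gene Cd300a differed by 0.23 ± 0.05 (adjusted p = 0.27). For both, as for Pilrb1, the groups did not overlap, a pattern that 0.726% of all genes show. These genes are named for their small p, so nothing is read from that separation.

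Downstream of the ITAM, 21 of 29 genes had positive differences (median 0.04), 7 were higher and 1 lower at an unadjusted p under 0.05. Ptprc, the gene of the phosphatase CD45, differed by 0.44 ± 0.10, the adaptor gene Skap2 by 0.21 ± 0.06, Lcp2, the gene of the adaptor SLP-76, by 0.33 ± 0.10 and the GTPase gene Rac2 by 0.33 ± 0.11 (limma adjusted p = 0.365, 0.703, 0.704 and 0.732). The 1 lower gene, Plek2, a paralogue of Plek named after its values were seen, differed by -0.23 ± 0.10 (adjusted p = 0.876).

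Among other cathepsins and lysosomal genes 20 of 27 had positive differences (median 0.05), and 6 were higher at an unadjusted p under 0.05. Lgmn, the gene of the asparaginyl endopeptidase legumain, differed by 0.31 ± 0.06, Lyz1 and Lyz2, the lysozyme genes, by 0.32 ± 0.10 and 0.20 ± 0.07, and Ctsc, the gene of cathepsin C, by 0.43 ± 0.18 (limma adjusted p = 0.27, 0.704, 0.723 and 0.869). Of 23 myeloid transcription factors and growth factor receptors 16 had positive differences (median 0.03), and 3 were higher at an unadjusted p under 0.05. Tfec differed by 0.19 ± 0.05, Csf2ra by 0.34 ± 0.11, Irf5 by 0.47 ± 0.18 and Irf8, not past that p, by 0.16 ± 0.11 (limma adjusted p = 0.586, 0.74, 0.806 and 0.92).

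**Figure D3:**
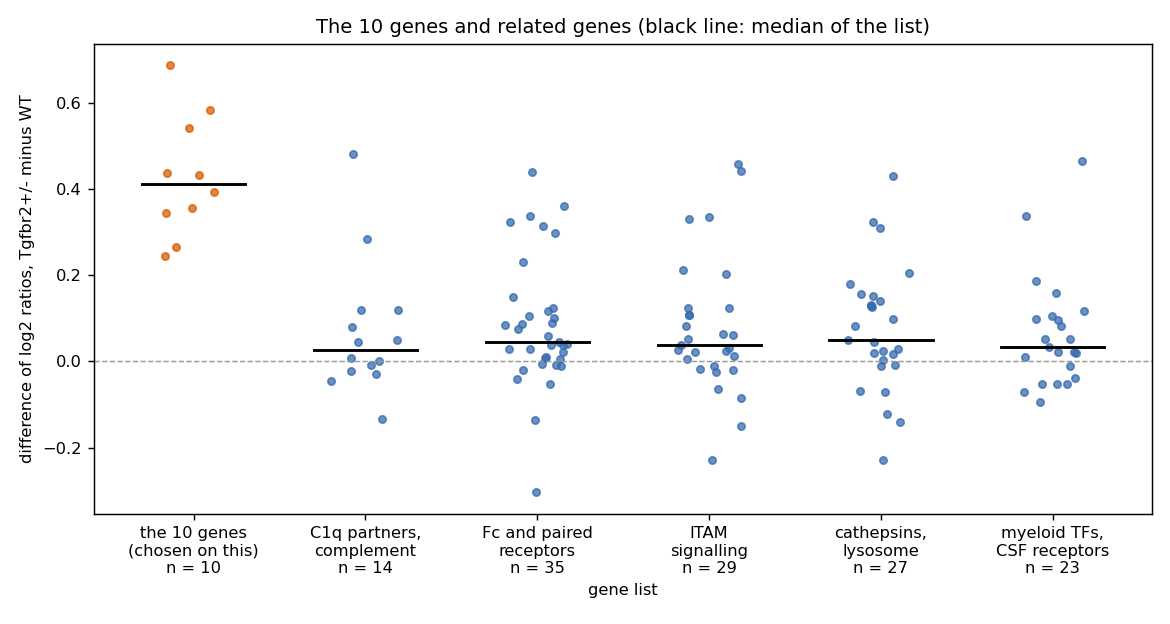
Difference of mean log2 ratios, Tgfbr2+/- minus WT (y axis), for each of the 10 genes and for the genes of 5 related lists (x axis), 1 point per gene with a line at each list's median. The 10 genes were chosen on this difference, and the medians of the related lists lie between 0.03 and 0.05.

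Markers of the cell types that liver tissue holds were read beside these values. Counts at an unadjusted p under 0.05 stand against 2.97% of all genes higher at that p. Macrophage and Kupffer cell markers had positive differences for 14 of 17 (median 0.25), and 11 were higher at an unadjusted p under 0.05. Their mean level was -0.20 to -0.12 in WT and 0.04 to 0.24 in Tgfbr2+/-, so it moved with the 10 genes. The 4 genes of smallest p were Cd5l, Vsig4, Folr2 and Adgre1 (0.67 ± 0.10, 0.48 ± 0.08, 0.61 ± 0.10 and 0.49 ± 0.08, limma adjusted p from 0.115 to 0.134). Cd68, of the same list, differed by 0.03 ± 0.04 (limma adjusted p = 0.954), and 3 of the markers had negative differences. The libraries did not rank alike on the macrophage list and on the 10 genes. Tgfbr2+/- replicate 4 was at 0.04 on the macrophage list and at 0.33 on the 10 genes, and replicate 6 at 0.24 and 0.27. Tgfbr2+/- replicate 3 was low on both, at 0.04 and 0.01.

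Neutrophils express Fcer1g and Tyrobp too. Their markers had positive differences for 11 of 13 (median 0.06), 3 of them at an unadjusted p under 0.05. Their mean level was -0.13 to 0.02 in WT and 0.03 to 0.24 in Tgfbr2+/-. S100a9 differed by 0.79 ± 0.18 and S100a8 by 0.33 ± 0.10 (limma adjusted p = 0.419 and 0.65). Tgfbr2+/- replicate 5 was the highest library on neutrophil markers (0.24), and lay below replicates 1, 2 and 4 on the 10 genes (0.28). For dendritic cells 7 of 10 markers had positive differences (median 0.06) and 2 were higher at an unadjusted p under 0.05, with a mean level of -0.06 to 0.06 in WT and -0.03 to 0.15 in Tgfbr2+/-. Monocyte markers had positive differences for 3 of 8 (median -0.02), with 2 higher at an unadjusted p under 0.05 and a mean level of -0.11 to 0.08 in WT and -0.13 to 0.10 in Tgfbr2+/-. The monocyte marker of smallest p, Plac8, differed by 0.51 ± 0.12 (limma adjusted p = 0.435). Vcan, 1 of 5 monocyte markers with negative differences, differed by -0.10 ± 0.06 (adjusted p = 0.919). Turning the doubted columns closed most of these gaps. With WT replicate 1 turned in sign both the macrophage and the neutrophil means overlapped between the groups (WT up to 0.12 and 0.13, Tgfbr2+/- from 0.04 and 0.03). With Tgfbr2+/- replicate 5 turned the neutrophil means overlapped, and the macrophage means were 0.02 apart. As deposited, the neutrophil means were 0.01 apart. The part of these cells in the differences of the 10 genes was not tested.

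The groups overlapped on the mean of every other marker list. Mast cell and basophil markers, whose Fc epsilon receptor uses the same gamma chain, had positive differences for 4 of 8 (median 0.0041), with the receptor's own alpha chain gene Fcer1a at -0.14 ± 0.11 (limma adjusted p = 0.924). Their mean level was -0.04 to 0.07 in WT and -0.01 to 0.06 in Tgfbr2+/-. T, NK and B cell markers had positive differences for 8 of 13 (median 0.02), those of sinusoidal endothelium for 6 of 12 (0.01), of stellate cells and fibroblasts for 6 of 11 (0.02), of cholangiocytes for 1 of 5 (-0.01), of hepatocytes for 7 of 10 (0.04) and of erythroid cells for 1 of 5 (-0.01). Of these lists, the endothelial one had 2 genes and the erythroid one 1 gene (Alas2, 0.15 ± 0.05, limma adjusted p = 0.683) higher at an unadjusted p under 0.05. In the endothelial list, Clec4g differed by 0.27 ± 0.08 (limma adjusted p = 0.621). All 6 Tgfbr2+/- libraries lay above all WT libraries for Clec4g (0.726% of all genes), 0.01 apart at the nearest. The inhibitory Fc receptor gene Fcgr2b, which sinusoidal endothelium and macrophages both express, differed by 0.36 ± 0.11 (adjusted p = 0.718). Stab2, the gene of the scavenger receptor stabilin-2, named after its values were seen, differed by -0.08 ± 0.04 (adjusted p = 0.913), with all 6 Tgfbr2+/- libraries below all WT libraries (0.354% of all genes).

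**Figure D4:**
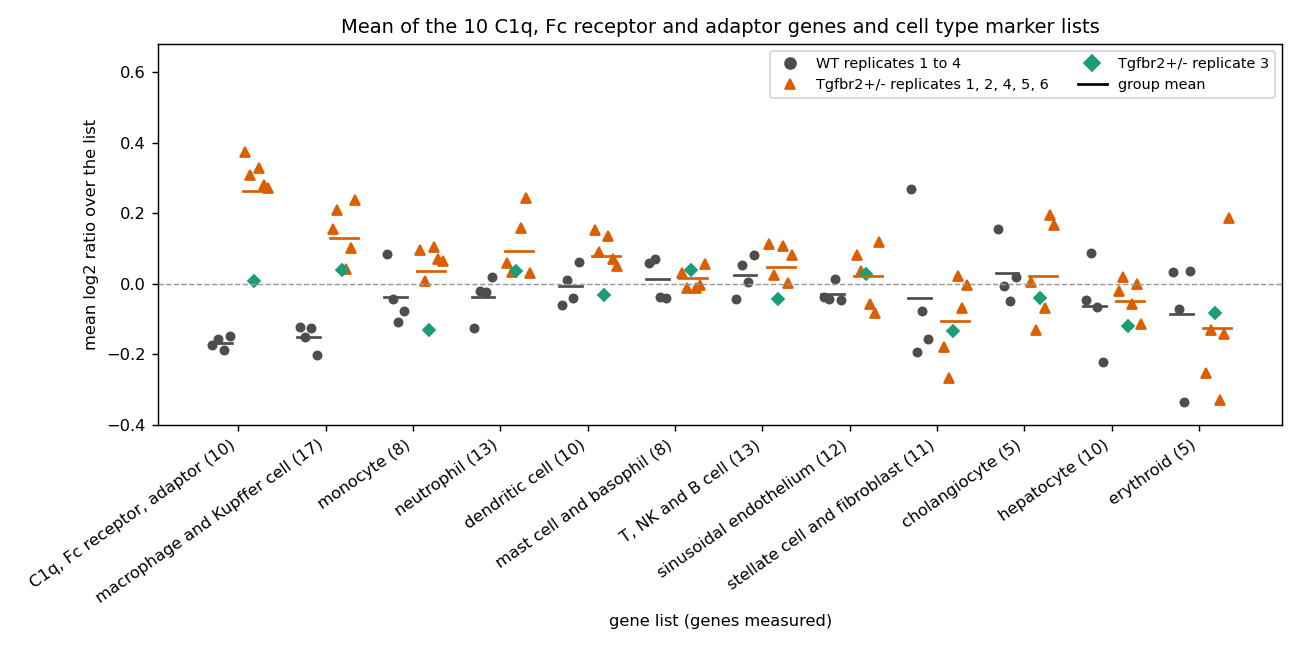
Mean log2 ratio over the pool (y axis) of the 10 C1q, Fc receptor and adaptor genes and of 11 cell type marker lists (x axis, with the number of genes measured) in 4 WT libraries (circles), Tgfbr2+/- replicates 1, 2, 4, 5 and 6 (triangles) and replicate 3 (diamonds), with lines at the group means. The groups are apart for the 10 genes, for the macrophage list (-0.20 to -0.12 against 0.04 to 0.24) and for the neutrophil list (-0.13 to 0.02 against 0.03 to 0.24, 0.01 apart), and overlap for the other lists. Turning WT replicate 1 in sign closes the macrophage and neutrophil gaps.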

How the data were processed

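Liver RNA of 6 Tgfbr2+/- and 4 wild-type mice was measured against a wild-type pool on 2-colour arrays. RNA came from RNeasy columns with DNase treatment and was amplified with aminoallyl MessageAmp II chemistry, per the labels' protocols, and per the series' design text dyes were swapped. Not given in the sources used here are scanner software, background correction and normalization. The authors deposited 1 column of log10 ratios per library. The base was inferred from 8 values at exactly 2 or -2, and column medians lay between 0.0013 and 0.0047, so columns are centred. Scale and direction stay inferred. Values were multiplied by 3.32 to log2 ratios, with no further normalization.

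Of 23438 probes 17726 carry 1 symbol in the platform annotation, 50 carry several and 5662 are unnamed here. Probes were averaged to 16383 genes. Differences were fitted with limma 3.58.1 in R 4.3.3 over all 10 libraries, two-sided, and Benjamini-Hochberg adjusted over all genes or probes at 0.05. The fit was tested on simulated data. The number of arrays limits the precision. The 10 genes, the related and marker lists and the tests were chosen with earlier results of these data known. Text names all 10 genes, their RefSeq neighbours, the 4 genes of smallest p per related list, marker genes of smallest p, and the 8 most alike genes. Promoter windows came from RefSeq (GRCm38.p6). Alternatives left out libraries, turned columns, recentred, quantile normalized, weighted arrays, blocked on replicate number, set Tgfbr2+/- against the pool, or took 1 probe per gene.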

Additional observations from a re-analysis of the deposited data

Results flagged for a closer look

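A library was singled out where its gap to the nearest library of its group exceeded Dixon's critical value, which chance exceeds in about 1 of 20 groups. That was so in 14 cases over 108 groups of values. Tgfbr2+/- replicate 3 was low for C1qc (-0.0206, the other 5 at 0.23 to 0.32), Pilra (0.12, others 0.43 to 0.60), the mean of the 10 genes (0.0065, others 0.27 to 0.37), the mean of the C1q chains (-0.10, others 0.15 to 0.28) and the mean of Pilra, Ctss and Plek (0.0816, others 0.33 to 0.45). It was also low for Irgm1 (-0.19, others 0.01 to 0.12) and Psmb9 (-0.71, others 0.20 to 0.55), which were chosen for likeness to the mean of the 10 genes, a measure that uses this library, so their low values restate that choice.

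WT replicate 2 was low for Tyrobp (-0.22, the other 3 at -0.16 to -0.15) and high for the mean of the C1q chains (-0.0368, others -0.18 to -0.16). C2 was high in Tgfbr2+/- replicate 5 (0.68, others -0.04 to 0.16). WT replicate 1 was high for Lyz1 (-0.0551, others -0.30 to -0.26) and Col6a1 (0.0797, others 0.06 to 0.07). WT replicate 4 was high for Irf5 (0.16, others -0.29 to -0.23) and Rab31 (-0.0721, others -0.15 to -0.14).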

How the results depend on the processing

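Under 19 alternatives each of the 10 genes kept a positive difference, from 0.12 to 0.75. The genes were chosen on this contrast and the alternatives refit the same values, so the kept sign is a description and no test. Each gene has 1 probe, so taking 1 probe per gene could not change its difference. The mean difference of the 10 genes was 0.41 to 0.48 when 1 library was left out. It was 0.26 for Tgfbr2+/- against the pool, which uses no WT library. With 1 library left out 7 to 9 of the 10 separated the groups, as did 0.855% to 2.14% of all genes. With WT replicate 1 or Tgfbr2+/- replicate 5 turned in sign 1 did (0.256% and 0.317% of all genes). Nothing is read from these counts, because the genes were chosen on this contrast. Calls at an adjusted p of 0.05 rested on 1 library: 0 to 15 probes and 0 to 10 genes passed when 1 library was left out, the highest counts without Tgfbr2+/- replicate 3. Against the pool 1 probe and 2 genes passed, and with all libraries 0 of each (1151 probes at an unadjusted p under 0.05). Related genes higher at an unadjusted p under 0.05 numbered 24, and 15 with Tgfbr2+/- replicate 5 turned or without replicates 4 and 5 together. The median r between the 10 genes, 0.54, ran from -0.0049 to 0.62 with 1 library left out, the lowest value without Tgfbr2+/- replicate 3. With the replicate number as a block (replicate block) the mean difference was 0.42, 0 genes passed and 23 related genes were higher at an unadjusted p under 0.05. The replicate numbers are not said to pair mice, so they were not taken as pairs. Same-numbered libraries had deviations correlated at 0.11, 0.10, 0.30 and 0.02. Those of differently numbered libraries were not set beside them, so these values cannot decide whether the numbers pair mice.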
